A study of Saccharomyces cerevisiae with 4 samples.

Results

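The 4 arrays of this yeast series carry a strain and a number, and the comparison described here sets the 2 arrays numbered 1, wild type and mutant, against the 2 arrays numbered 2. It asks which sets of genes went up and down together with the number in both strains, and it leaves the strain difference aside. All 4 arrays of the series entered it. Of the 10928 probe sets on the arrays, 5498 were named for 1 Saccharomyces cerevisiae gene, and 5370 of these, for 5326 genes, were bright enough to test. The wild type was W303, a common laboratory strain, and the other strain was the SSG1-1 mutant, which the submitters call long-lived. Per the labels, both strains were grown at 25 °C in the rich medium YPD and taken through a preculture into SDC, a synthetic medium at pH 6.0, for 12 h until early-log phase at 2000000 cells per ml. RNA was extracted with acid phenol, and 500 ng of total RNA per array was turned into biotin-labelled cRNA. No label says what a number stands for or whether the arrays came from separate cultures, so the p-values reflect only how far these 4 arrays scatter, and that scatter may be technical.

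Budding yeast tunes large sets of genes to the nutrients in its medium. When phosphate is short, the transcription factor Pho4 turns on phosphate transporters, secreted phosphatases and the vacuolar enzymes that make polyphosphate. When inositol is plentiful, the repressor Opi1 shuts off INO1 and other phospholipid genes that the activators Ino2 and Ino4 otherwise drive. The stress factors Msn2 and Msn4, the sulfur activator Met4 and the nitrogen-responsive GATA factors act in the same way on their own target sets, and fast growth goes with high expression of the genes that build ribosomes.

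The difference between numbers was alike in both strains. Across the 5370 probe sets the log2 difference, number 1 minus number 2, in the wild type and that in the mutant correlated with Pearson's r of 0.723 and Spearman's rho of 0.698, and 76.4% of probe sets had the same sign in both. These are correlations across genes, which are not independent replicates, and the pairs share no array. They reached 0.824 among the probe sets brighter than the median and 0.678 among the dimmer ones. In 41 probe sets number 1 was at least 2-fold higher in both strains and in 7 at least 2-fold lower in both, while 1 probe set moved at least 2-fold in opposite directions. Arrays of different strains and the same number also resembled each other more (r = 0.991 for number 1 and 0.992 for number 2) than arrays of the same strain (r = 0.987 for the wild type and 0.984 for the mutant). The median absolute log2 difference between same-numbered arrays was 0.136 and 0.128, and between arrays of 1 strain it was 0.183 and 0.193.

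**Figure D1:**
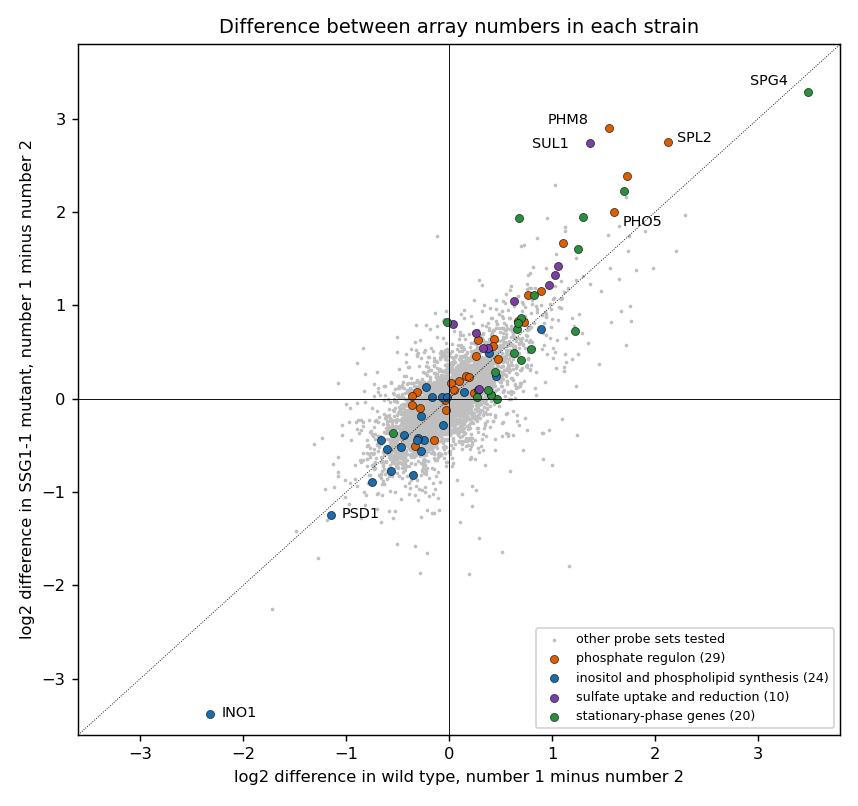
Each point is a probe set, with its log2 difference between number 1 and number 2 in the wild type (horizontal axis) and in the SSG1-1 mutant (vertical axis), 1 array per strain and number. Coloured points are members of 4 gene lists, the numbers in brackets are the genes plotted, and the dotted line marks equal differences. SPG4, SPL2, PHM8, SUL1 and PHO5 lie at the upper right and INO1 and PSD1 at the lower left.

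limma, with strain and number in the model, called 960 probe sets higher on the arrays numbered 1 (17.9% of those tested) and 1058 lower (19.7%) at an adjusted p under 0.05. With 4 arrays the model left 1 residual degree of freedom, and limma read the variance of every gene off its trend with signal, so a call does not weigh a gene's own spread. A firmer set was called by this fit, by the fit without strain and by the fit without the trend. It held 82 probe sets that were higher (1.53%) and 65 that were lower (1.21%), and is referred to below as called in all 3 fits. The counts depended on the fit: without strain, limma called 83 higher and 77 lower, and on the deposited values without normalization 12 and 2. With 1 array left out, which needs the fit without strain, limma called 113 and 82 without wild-type array 1, 10 and 2 without wild-type array 2, 39 and 28 without mutant array 1, and 14 and 3 without mutant array 2. In such a fit 1 number keeps an array of 1 strain only, so its difference also holds part of the strain difference. Without any model, both arrays numbered 1 lay above both numbered 2 in 1429 probe sets (26.6%) and below them in 1598 (29.8%). Called differences were mostly small: 62 probe sets were called and at least 2-fold higher, and 13 were called and at least 2-fold lower. Errors given below are limma's standard errors of the log2 difference, which had a median of 0.101, and signals are the quantile-normalized values. These errors too follow from signal alone, so they do not show how far the strains disagreed on a gene. SUL1, for example, has an error of 0.17 with differences of 1.36 in the wild type and 2.74 in the mutant. A probe set's level cannot be set against that of another probe set.

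Some features of the arrays themselves moved with the number. Of 17 probe sets for the yeast ribosomal RNAs, 13 had both arrays numbered 1 above both numbered 2, with a median log2 difference of 0.54 over all 17. These probe sets cover only the 18S, 25S and 5.8S RNAs, so they are not independent. Of the yeast probe sets tested, 26.6% had both arrays numbered 1 above both numbered 2. One 25S probe set read 12630.0 and 12190.0 on the arrays numbered 1 and 5436 and 4917 on those numbered 2. The ratio of 3′ to 5′ signal, a sign of RNA integrity, overlapped between the numbers for 5 of 8 control transcripts, was higher on number 1 for WBP1 and lower for TDH1 and RIP1. The deposited median signal of the yeast probe sets was 1171 and 1012 on wild-type arrays 1 and 2 and 874.2 and 1084 on mutant arrays 1 and 2, so the overall level differed in opposite directions in the strains. Among mating-type markers, STE2, the alpha-factor receptor of a cells, read 13837 and 12655 on number 1 against 13873 and 12992 on number 2. MF(ALPHA)1, an alpha-factor gene, read lower on number 1, at 31.2 and 17.9 on number 1 against 54.9 and 39.6 on number 2. Its lowest signal was close to 15.93, the signal at the filter on dim probe sets. The part of these features in the results below was not tested, except that the lists were also computed with the trend on gene length removed.

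The phosphate regulon was higher on the arrays numbered 1. Of its 29 genes tested, 16 were called higher and 2 lower, 9 of them higher in all 3 fits, and the median difference was 0.22 (0.26 in the wild type and 0.24 in the mutant) against -0.01 over all genes. The shares called, 55.2% higher and 6.9% lower, compare with 17.9% and 19.6% of all genes. With the trend on gene length removed, an alternative chosen after the data were seen, the median was 0.36, and without wild-type array 1 it was 0.336. Members named here beside the 3 with the largest differences were chosen after their values were seen, or were fixed by name as nutrient markers.

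SPL2, whose small protein curbs low-affinity phosphate uptake when phosphate is short, gave 5930.2 and 9136 on the arrays numbered 1 (wild type, then mutant) and 1359 and 1354 on those numbered 2. Both arrays numbered 1 were far above both numbered 2, and the arrays numbered 2 were nearly equal. The log2 difference was 2.44 ± 0.08, a 5.43-fold change, with an adjusted p of 0.0132 in limma without strain. PHM8, a phosphatase for nucleotides and lysophosphatidic acid, gave 327 and 785 on number 1 against 112 and 105 on number 2, a log2 difference of 2.23 ± 0.16. PHM6, a phosphate-regulated gene of unknown function, gave 1672 and 2875 on number 1 against 504 and 549.8 on number 2 (log2 difference 2.06 ± 0.10). In all 3 genes the mutant array numbered 1 was the highest of the 4.

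Among the phosphatases, PHO5, the main secreted acid phosphatase, read 7387 and 14356 on number 1 against 2442 and 3585 on number 2. The groups did not overlap, and the log2 difference was 1.80 ± 0.06, with an adjusted p of 0.0472 in limma without strain. Its paralog PHO11, whose probe set can also bind near-identical family members, differed by 0.78 ± 0.05, and the vacuolar alkaline phosphatase PHO8 by 0.45 ± 0.06. Of the 5 phosphatase genes tested, 4 were called higher, and the median was 0.45.

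All 4 transport genes were called higher, with a median of 0.52. PHO84, the high-affinity proton-coupled transporter, was bright on all arrays at 11541 and 13160.0 on number 1 against 8294 and 9816 on number 2 and differed by 0.45 ± 0.05. PHO89, the sodium-coupled transporter, read 1083 and 3494 on number 1 against 504 and 1101 on number 2; the mutant array numbered 2 lay above the wild-type array numbered 1, so the groups overlapped across strains although the difference was 1.10 and 1.67 within them. GIT1, which imports glycerophosphoinositol, differed by 0.54 ± 0.13, and PHO86, needed for Pho84 to leave the endoplasmic reticulum, by 0.49 ± 0.05.

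Of 8 genes for polyphosphate and the vacuole, 5 were called higher and none lower. VTC4, the polyphosphate polymerase of the vacuolar transporter chaperone, differed by 0.75 ± 0.06 and its partner VTC3 by 1.02 ± 0.06, with VTC3 signals of 6788 and 8848 on number 1 against 3660.4 and 3987 on number 2. VTC1 differed by 0.20 ± 0.04, while VTC2 stood at -0.12 ± 0.07 and was not called.

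The regulators split. PHO81, which inhibits the Pho80-Pho85 kinase and is itself a Pho4 target, read 2642 and 3120.1 on number 1 against 1552 and 1444 on number 2 and differed by 0.94 ± 0.09. PHO4 was called lower, at 325 and 178 on number 1 against 408 and 253 on number 2 and a difference of -0.42 ± 0.15, with overlap between the numbers because both mutant arrays were below both wild-type arrays. The low-affinity transporter gene PHO87 was also called lower (-0.29 ± 0.10), and PHO80, PHO85 and PHO2, at -0.17, 0.15 and -0.19, were not called. Over the 12 regulators and low-affinity transporters the median was 0.02, with 3 higher and 2 lower.

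**Figure D2:**
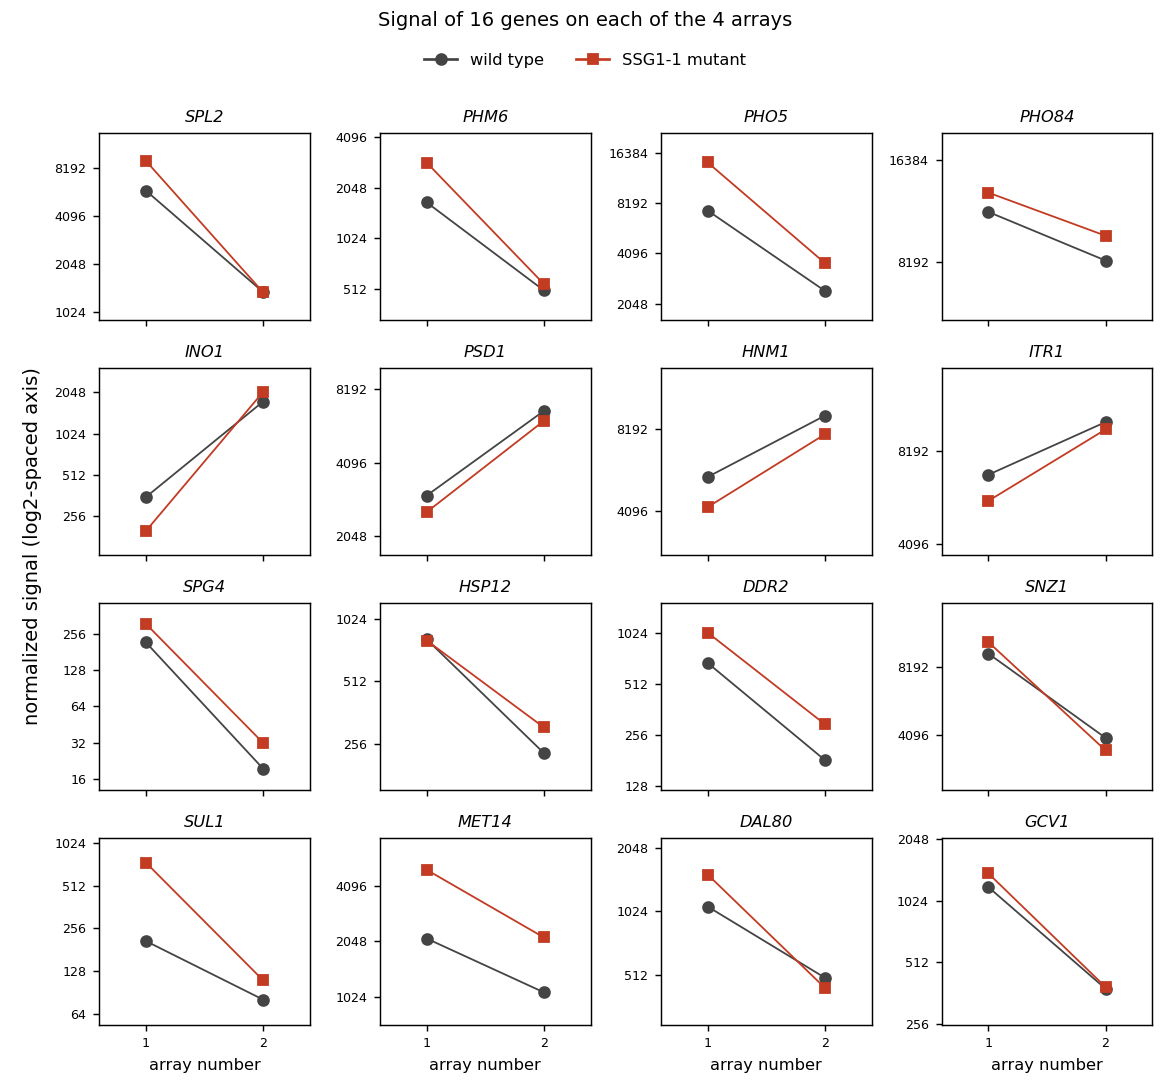
Quantile-normalized signal of 16 genes on the 4 arrays, with the array number on the horizontal axis and 1 point per array. Lines join the arrays of a strain and show no time course, and each panel has its own log2-spaced axis. SPL2, PHM6, PHO5 and PHO84 of the phosphate regulon are higher on number 1 in both strains, and INO1, PSD1, HNM1 and ITR1 are lower.

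Genes for inositol and phospholipid synthesis were lower on the arrays numbered 1. Of 24 tested, 14 were called lower (58.3%) and 3 higher (12.5%), against 19.6% and 17.9% of all genes. In all 3 fits 5 of them were lower. The median difference was -0.35 (-0.27 in the wild type and -0.40 in the mutant). With the trend on gene length removed the median was -0.26, and without mutant array 1 it was -0.21. INO1, which encodes the enzyme that makes inositol phosphate from glucose 6-phosphate, gave 352 and 199 on the arrays numbered 1 (wild type, then mutant) and 1753 and 2061 on those numbered 2. Both arrays numbered 1 lay below both numbered 2, and the mutant had both the lowest and the highest value. Its log2 difference of -2.84 ± 0.11 (-2.32 in the wild type and -3.37 in the mutant) was the most negative of all genes tested, with an adjusted p of 0.0191 in limma without strain.

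ITR1, the main inositol transporter, read 6866 and 5646 on number 1 against 10178 and 9632 on number 2 and differed by -0.67 ± 0.06. The minor transporter ITR2 was not called (-0.08 ± 0.09). INM2 and INM1, which encode inositol monophosphatases, were called higher, by 0.82 ± 0.11 and 0.35 ± 0.10. Inositol uptake and synthesis was divided, with 2 of 5 genes higher and 2 lower.

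The steps from phosphatidic acid to phosphatidylcholine were lower more evenly: 11 of 16 genes were called lower, none higher, and the median was -0.37. With the trend on gene length removed this median was -0.27. PSD1, the mitochondrial phosphatidylserine decarboxylase, read 3006 and 2573 on number 1 against 6674 and 6078 on number 2, a log2 difference of -1.20 ± 0.07 (adjusted p = 0.0177 in limma without strain). HNM1, the choline transporter, read 5475 and 4240.3 on number 1 against 9194 and 7852 on number 2 (-0.82 ± 0.06). Both genes had every array numbered 1 below every array numbered 2.

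CDS1, which makes CDP-diacylglycerol, differed by -0.57 ± 0.06, and CHO1, the phosphatidylserine synthase, by -0.49 ± 0.05. The phosphatidylethanolamine methyltransferases CHO2 and OPI3 stood at -0.36 ± 0.05 and -0.42 ± 0.05, and CKI1, the choline kinase, at -0.56 ± 0.11. OPI1, the repressor of the pathway, was called lower (594 and 349 on number 1 against 758 and 615 on number 2, a difference of -0.59 ± 0.12), and INO2, its activator, was called higher (0.44 ± 0.12), while INO4 was not called (-0.23 ± 0.13). Genes of fatty acid synthesis did not share the shift: 4 of 19 were called lower (21.1%, against 19.6% of all genes) and 1 higher (5.26%, against 17.9%). Their median was -0.02, and it was above 0 under another scaling. FAS1, FAS2 and OLE1, for the fatty acid synthase subunits and the desaturase, stood at -0.07, -0.02 and 0.09 and were not called, and ACC1, for acetyl-CoA carboxylase, differed by -0.16 ± 0.05, a sign that was not kept with the length trend removed.

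Stress and stationary-phase genes were higher on the arrays numbered 1. Of 57 genes of the general stress list, 23 were called higher and 2 lower (median 0.26, at 0.21 in the wild type and 0.29 in the mutant). Of 20 stationary-phase genes, 13 were called higher and 1 lower (median 0.69, at 0.68 and 0.74). The shares higher, 40.4% and 65.0% of the 2 lists, compare with 17.9% of all genes. The shares lower, 3.51% and 5.0%, compare with 19.6%. With the trend on gene length removed the stress median was 0.224 and the stationary-phase median 0.63. The stress median was 0.111 without mutant array 1 and 0.172 without wild-type array 2, and the stationary-phase median stayed between 0.564 and 0.773 with 1 array left out. The lists share members, PHM8 is also counted with the phosphate regulon, and SNO1 and SNZ1 with vitamin synthesis. The 20 stationary-phase genes summed to 30387 and 33410 on the arrays numbered 1 and to 17926 and 17335 on those numbered 2, while the labels give early-log phase for all. Bright genes weigh most in these sums. SNZ1 alone gave 9413 and 10591 of them on number 1 and 3958 and 3481 on number 2.

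SPG4, a gene named for survival in stationary phase, had the largest difference of all genes tested. Its signals were 218 and 310.1 on the arrays numbered 1 (wild type, then mutant) and 19.5 and 31.9 on those numbered 2. Those on the arrays numbered 2 were not far above 15.93, the signal at the filter on dim probe sets. The log2 difference was 3.38 ± 0.24, with an adjusted p of 0.0191 in limma without strain. ISF1, a serine-rich protein linked to respiratory growth, read 331 and 698 on number 1 against 102 and 149.7 on number 2 (1.96 ± 0.15), but it was not called without strain (adjusted p = 0.0507 in limma).

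Of the small heat-shock and membrane proteins of the stress list, 10 of 13 were called higher, with a median of 0.78. DDR2, a small stress protein, read 679 and 1024 on number 1 against 181.7 and 296 on number 2 (1.85 ± 0.13). HSP12, a membrane-stabilizing heat-shock protein, read 814 and 804 on number 1 against 232 and 308 on number 2 (1.60 ± 0.12). DDR48 and YGP1 differed by 1.17 ± 0.07 and 1.31 ± 0.09, but HSP26, a chaperone, read 131 and 212 on number 1 against 126 and 129 on number 2 and was not called.

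Of the stress enzymes, 13 of 37 were called higher and 2 lower, with a median of 0.22. CTT1, the cytosolic catalase, differed by 0.54 ± 0.20, AMS1, the vacuolar mannosidase, by 0.95 ± 0.14, and PNC1, the nicotinamidase, by 0.72 ± 0.09. None of the 7 regulators was called by limma or had an unadjusted p under 0.05, MSN2 and MSN4 standing at -0.03 and -0.10, although MSN4 was 0.25 in the wild type and -0.44 in the mutant. Of 32 chaperone and heat-shock genes 9 were higher and 3 lower, led by BTN2 (0.98 ± 0.10), SSE2 (0.87 ± 0.15) and APJ1 (0.65 ± 0.12), and the median was 0.01. Oxidative stress genes had 14 of 36 higher and 1 lower (median 0.16, and 0.0908 without wild-type array 2), with GTT2, a glutathione transferase, at 1.02 ± 0.15. Trehalose and glycogen genes were split, 3 higher and 3 lower of 20: GLC3, the glycogen branching enzyme, was at 0.95 ± 0.13 and UGP1, which makes UDP-glucose, at -0.62 ± 0.06.

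Every gene of sulfate uptake and reduction was higher on the arrays numbered 1. All 10 tested were called, with a median of 0.66 (0.50 in the wild type and 0.93 in the mutant), but none was called in all 3 fits. SUL1, a sulfate permease, read 209 and 741 on number 1 against 81.1 and 111 on number 2, a difference of 2.05 ± 0.17. The mutant array numbered 1 was more than the other 3 together, and the difference was 1.36 in the wild type and 2.74 in the mutant.

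MET14, which phosphorylates adenylyl sulfate, read 2119 and 5014 on number 1 against 1079.5 and 2149 on number 2 (1.10 ± 0.08), and MET3, the ATP sulfurylase, read 969 and 2414 on number 1 against 627 and 1165 on number 2 (0.84 ± 0.10). In both, the numbers overlapped across strains because the mutant array numbered 2 was above the wild-type array numbered 1, while within each strain number 1 was higher. With 1 array left out, MET14 ran from 0.476 to 1.72 and MET3 from 0.18 to 1.5, in fits that also hold part of the strain difference. SUL2, the other permease, differed by 1.24 ± 0.16, and MET16, the phosphoadenylyl sulfate reductase, by 1.18 ± 0.10. Downstream the pattern was mixed, with 7 of 22 genes for homocysteine, methionine and cysteine higher (31.8%) and 4 lower (18.2%), against 17.9% and 19.6% of all genes. Over all 38 sulfate and methionine genes the median was 0.0576, and without mutant array 1 it was -0.0128. MET17, which joins sulfide to the carbon chain, was bright on all arrays and differed by 0.17 ± 0.05. Of 6 regulators MET28 alone was called, at 176 and 359 on number 1 against 91.2 and 93.5 on number 2 (1.44 ± 0.18).

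Genes for poor nitrogen sources were higher as well. Of 22 genes under nitrogen catabolite repression 13 were called higher (59.1%) and 2 lower (9.09%), against 17.9% and 19.6% of all genes. In all 3 fits 4 of them were higher, and the median was 0.25 (0.24 in the wild type and 0.32 in the mutant). DAL80, a GATA-type repressor, read 1079.5 and 1534 on number 1 against 495 and 443 on number 2 (1.46 ± 0.11), with no overlap between the numbers. DAL7, the malate synthase of allantoin breakdown, differed by 1.30 ± 0.10, and DAL5, the allantoate permease, by 1.29 ± 0.10. OPT2, an oligopeptide transporter, read 1017 and 1230.5 on number 1 against 500.1 and 251 on number 2 (1.66 ± 0.11), with a larger difference in the mutant (2.29) than in the wild type (1.02), which was not tested. The dipeptide transporter PTR2 differed by 1.11 ± 0.09, PUT4, for proline uptake, by 0.68 ± 0.11, and CAN1, for arginine uptake, by 0.43 ± 0.08, while the 19 permease genes had a median of -0.03 whose sign depended on the scaling.

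Among the genes that make vitamins and building blocks, single enzymes stood out. GCV1, the T protein of the glycine cleavage system, read 1194 and 1393 on number 1 against 379 and 387 on number 2, a log2 difference of 1.75 ± 0.11 (adjusted p = 0.0085 in limma without strain). The same complex's GCV2 and GCV3 differed by 0.57 ± 0.09 and 0.56 ± 0.07, while SHM1, the mitochondrial serine hydroxymethyltransferase, was lower (-0.32 ± 0.05). SNZ1 and SNO1, the neighbouring genes of pyridoxal phosphate synthesis, read 9413 and 10591 on number 1 against 3958 and 3481 on number 2 and 2018 and 2498 on number 1 against 822 and 648 on number 2. Their differences were 1.43 ± 0.06 and 1.62 ± 0.10, with both arrays numbered 1 above both numbered 2. Purine and one-carbon genes were otherwise divided, with 8 of 27 higher (29.6%) and 9 lower (33.3%), against 17.9% and 19.6% of all genes. Amino acid biosynthesis genes had 21 of 65 higher and 12 lower with a median of 0.04; BAT2, for branched-chain amino acids, and HIS4, for histidine, were called higher in all 3 fits (0.87 ± 0.07 and 0.67 ± 0.06), and ARO9, an aromatic aminotransferase, lower (-0.61 ± 0.08). GCN4, the activator of these genes, was not called (-0.08).

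Carbon metabolism showed small differences, and its counts compare with 17.9% of all genes called higher and 19.6% lower. Of 47 glucose-repressed genes 13 were higher and 7 lower (median 0.10), with the repressor gene MIG3 at 1.00 ± 0.12, FBP1, of gluconeogenesis, at 0.78 ± 0.26 and ICL1, of the glyoxylate cycle, at 0.46 ± 0.16. HXK1, ADH2 and HAP4, at 0.40, 0.32 and 0.29, were called higher, but their numbers overlapped because the strains differed more than the numbers. Of the peroxisomal genes, 3 of 13 were higher and 1 lower (median 0.17), PEX21, an import factor, at 0.88 ± 0.12. Hexose transport genes stood at a median of -0.12, 1 of 19 being higher and 2 lower. Within the wild type and then the mutant, the medians were 0.167 and 0.0791 for glucose-repressed, 0.243 and 0.0968 for peroxisomal, and -0.124 and -0.08 for hexose genes. All 3 medians moved with 1 array left out, in fits that also hold part of the strain difference. The glucose-repressed median was 0.301 without mutant array 2, 0.271 without wild-type array 1, -0.038 without mutant array 1 and -0.0595 without wild-type array 2. The peroxisomal median was 0.0157 without mutant array 1 and 0.0917 without wild-type array 2, and the hexose median was 0.000724 without wild-type array 1 and -0.0131 without mutant array 2. Glycolysis genes had 8 of 25 higher and 5 lower, TDH3, glyceraldehyde phosphate dehydrogenase, differing by 0.31 ± 0.05 and PDC6, a minor pyruvate decarboxylase, by -0.90 ± 0.20. Glycerol and osmotic genes had 7 of 17 higher and 3 lower, with GPP2, a glycerol phosphatase, at 1.18 ± 0.09.

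**Figure D3:**
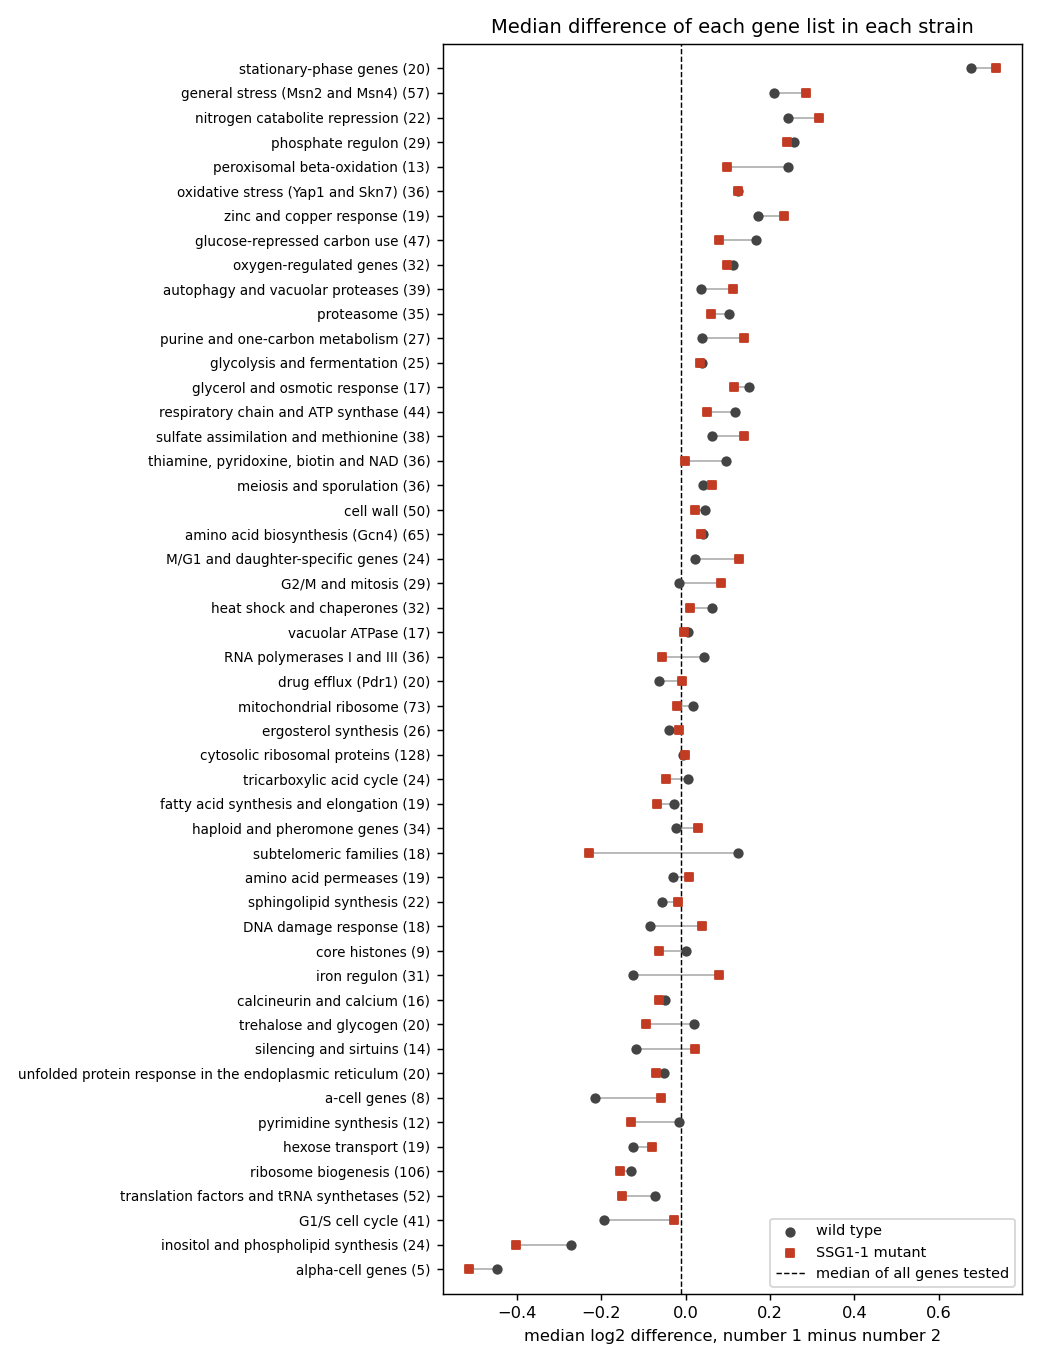
Median log2 difference, number 1 minus number 2, of 50 gene lists in the wild type (circles) and in the SSG1-1 mutant (squares), with the genes tested in brackets and the dashed line at the median of all genes. Stationary-phase, stress, nitrogen and phosphate lists lie to the right in both strains, and alpha-cell, inositol, translation and ribosome biogenesis lists to the left.

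Genes that build ribosomes and load tRNAs were slightly lower on the arrays numbered 1. Ribosome biogenesis had 39 of 106 genes lower and 6 higher, 2 of them lower in all 3 fits, with a median of -0.13 in the wild type and -0.16 in the mutant, and 67 genes were lower in both strains. Translation factors and tRNA synthetases had 26 of 52 lower and 8 higher (median -0.14), of which the 20 tRNA synthetases had 13 lower and 2 higher. With the trend on gene length removed the medians were -0.07 and -0.05, and over the scalings the translation median reached -0.0356. The ribosome biogenesis median of -0.13 was -0.0562 without mutant array 1, -0.0633 without wild-type array 2, -0.219 without mutant array 2 and -0.228 without wild-type array 1, and the translation median was -0.0682 without mutant array 1. The size of both shifts therefore depended on the length trend, and that of translation on the scaling too. With 1 array left out both medians also moved, in fits that hold part of the strain difference. The sign of both medians stayed negative throughout. The translation median was -0.0726 within the wild type and -0.151 within the mutant. The share lower, 36.8% and 50.0% of the 2 lists, compares with 19.6% of all genes. The median lengths of the lists were 1662 and 1704 bp. Among all genes of 1482 to 2121 bp, 389 of 1059 were called lower, with medians of -0.14 in the wild type and -0.16 in the mutant. The share lower in ribosome biogenesis was thus close to that of genes of like length.

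NOC4, of the small-subunit processome, read 3186 and 2877 on number 1 against 4765 and 4421 on number 2 (-0.60 ± 0.07) and was lower in all 3 fits. BMS1, a GTPase of the same particle, differed by -0.61 ± 0.09, and MAK21, a large-subunit assembly factor, by -0.60 ± 0.09. The initiation factor TIF4632 differed by -0.58 ± 0.13, while CAM1, of the elongation factor 1 complex, was higher (0.50 ± 0.07). In contrast to the assembly factors, the 128 genes for cytosolic ribosomal proteins lay around 0 (median -0.01), with 30 lower and 22 higher, and the sign turned under other scalings. Their shares, 23.4% lower and 17.2% higher, were near the 19.6% and 17.9% of all genes. RPL41A, whose probe set may also bind its near-identical copy, was the one ribosomal protein gene called in all 3 fits (-0.65 ± 0.07). NOP1, the rRNA methyltransferase, and RPA190, the largest subunit of RNA polymerase I, were not called (0.10 and -0.06). The ribosomal RNA controls moved the opposite way, with the higher signal on number 1 given above.

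Cell cycle and cell-type genes differed in a few members. The G1/S list had 13 of 41 genes lower (31.7%) and 5 higher (12.2%), against 19.6% and 17.9% of all genes. Its median was -0.19 in the wild type and -0.03 in the mutant, and the median of -0.17 was -0.0761 without wild-type array 1. SWI6, a subunit of both G1/S transcription factors, read 284 and 278 on number 1 against 482 and 489 on number 2 (-0.79 ± 0.13), and CLB6, an S-phase cyclin, differed by -0.68 ± 0.10, both lower in all 3 fits. WHI5, the G1 repressor, differed by -0.89 ± 0.29 at signals of 28.3 and 52.0 on number 1 against 53.5 and 94.1 on number 2. CDC6, which licenses replication origins, differed by -0.69 ± 0.11, but it belongs to the M/G1 list, which did not lean lower. Of 24 M/G1 genes 7 were called higher (29.2%) and 3 lower (12.5%), with a median of 0.02. In that list SCW11 stood at -0.53 ± 0.08 and PCL9 at 0.46 ± 0.10. The G2/M list had 5 of 29 genes higher (17.2%) and 4 lower (13.8%), also with a median of 0.02. Of 5 alpha-cell genes 4 were called lower, but none in all 3 fits. Among them were STE3, the a-factor receptor, at 48.0 and 56.3 on number 1 against 58.9 and 110.2 on number 2. SAG1, the alpha-agglutinin, stood at 758 and 878 on number 1 against 1236 and 961 on number 2. The alpha-cell list summed to 2872 and 2366 on the arrays numbered 1 and to 3630 and 3084 on those numbered 2, wild type first. The alpha-cell median of -0.42 was -0.235 without wild-type array 2. Of 8 a-cell genes 2 were called lower (25.0%), near the 19.6% of all genes, and with 1 array left out the list's median of -0.08 ran from -0.241 without mutant array 2 to 0.0427 without wild-type array 2. They were BAR1, the alpha-factor protease, at -0.52 ± 0.07 and AXL1, which also sets bud sites, at -0.59 ± 0.10. Meiotic genes were divided, with 4 of 36 higher and 4 lower. That is 11.1% in each direction, below the 17.9% higher and 19.6% lower of all genes. SPO22 and SSP1 stood at -1.03 ± 0.18 and -0.77 ± 0.19 and SPO19 at 0.81 ± 0.19.

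Metal genes were mixed. Iron uptake genes had 7 of 18 lower (38.9%) and 1 higher (5.56%), against 19.6% and 17.9% of all genes. SMF3, a vacuolar iron transporter, was lower in all 3 fits (2661 and 2394 on number 1 against 4412 and 4038 on number 2, a difference of -0.74 ± 0.08). FIT2, a cell-wall mannoprotein that retains siderophores, differed by -0.63 ± 0.09 with overlap across strains. Of 12 zinc genes 4 were called higher (33.3%) and 3 lower (25.0%), against 17.9% and 19.6% of all genes. Their median was 0.09. IZH1 and IZH4, for membrane proteins of zinc homeostasis, were higher (0.71 ± 0.06 and 1.15 ± 0.11), as was ZAP1, the zinc-responsive activator (0.60 ± 0.15), while ZRT3, which exports zinc from the vacuole, was lower in all 3 fits (-0.58 ± 0.07). PMR1, the Golgi calcium and manganese pump, and MID1, of the plasma membrane calcium channel, were lower in all 3 fits (-0.76 ± 0.07 and -0.68 ± 0.09), while CMK2, a calmodulin-dependent kinase, was higher (0.63 ± 0.10).

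Of the 15 largest differences in each direction among named genes with no overlap, 10 of the higher and 7 of the lower were called in all 3 fits. Higher genes outside the lists were SRL4, linked to the supply of deoxynucleotides, at 185 and 159 on number 1 against 37.9 and 40.9 on number 2 (2.13 ± 0.24), HPF1, a mannoprotein, at 1.89 ± 0.10, RGS2, a regulator of glucose-sensing G protein signalling, at 1.75 ± 0.16, and MGA1, similar to heat shock factors, at 1.66 ± 0.26. AAD6, a putative aryl-alcohol dehydrogenase of a subtelomeric family, read 556 and 832 on number 1 against 169 and 186 on number 2 (1.94 ± 0.14). HPF1 and MGA1 were not called in all 3 fits.

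On the lower side FRE7, a metalloreductase that responds to copper, read 26.9 and 34.3 on number 1 against 88.5 and 163 on number 2 (-1.98 ± 0.27), and COS7, of a family of near-identical subtelomeric genes whose members its probe set may bind, read 891 and 945 on number 1 against 2492 and 2530.0 on number 2 (-1.45 ± 0.09). The values of COS7 within a number were nearly equal in both strains. CAB3, of coenzyme A synthesis, differed by -1.09 ± 0.15, SMI1, a regulator of cell wall synthesis, by -0.95 ± 0.11, and BDP1, a subunit of the RNA polymerase III factor TFIIIB, by -0.93 ± 0.15, each in all 3 fits. FRE8, KEL2, DIA3, HDA3, ATG29 and DDC1 were lower by the first fit (-1.07, -1.03, -0.99, -0.94, -0.94 and -0.93) but not in all 3, and all of them except KEL2 read low on every array. SIR4, a silencing protein, differed by -0.80 ± 0.12. Actin, ACT1, was level at 17866 and 18091 on number 1 against 17458 and 17458 on number 2 (0.04 ± 0.04, not called).

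Gene length went with the difference in both strains. Genes of 676 to 1044 bp had a median of 0.0968 in the wild type and 0.0721 in the mutant, and 300 of 1065 were called higher and 72 lower. In genes of 1482 to 2121 bp the medians were -0.14 and -0.16, with 109 of 1059 higher and 389 lower, and in the longest genes, from 2124 bp, they were -0.12 and -0.11. Signal made little difference, the medians of 5 classes by signal lying between -0.0372 and -0.00598. After the trend on length was removed, 957 probe sets were called higher and 874 lower, and the correlation between the strains was 0.703. The median length was 1701 bp in the phosphate list, 1274 bp in the inositol list, 714 bp in the stationary-phase list and 1662 bp in ribosome biogenesis, against 1252 bp over all genes.

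**Figure D4:**
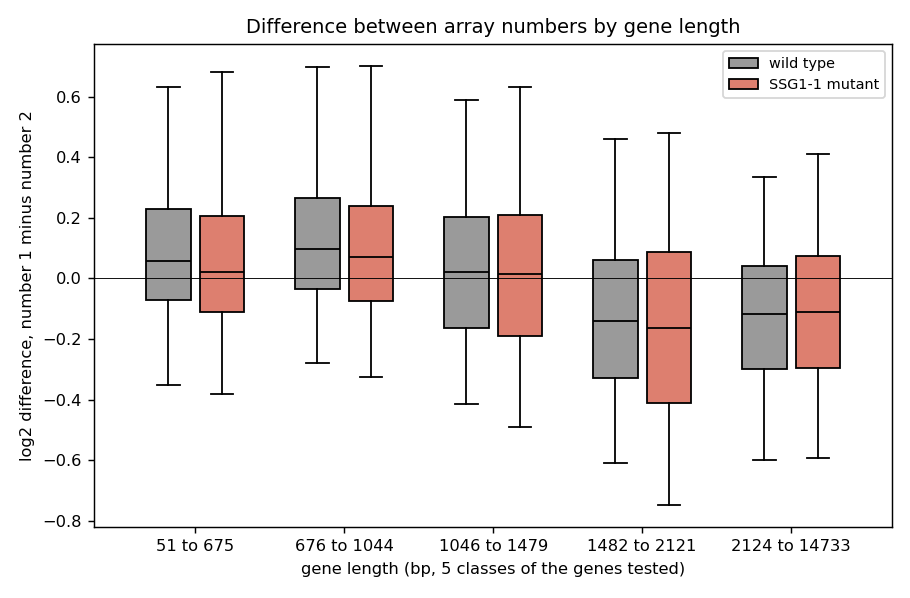
Log2 difference between number 1 and number 2 in 5 equal classes of the 5326 genes by gene length in bp, for the wild type (grey) and the SSG1-1 mutant (red). Boxes span the quartiles, the line is the median and whiskers reach from the 5th to the 95th percentile. The boxes of the 2 classes of longer genes sit below those of the 2 classes of shorter genes in both strains.

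The respiratory chain had 13 of 44 genes higher and 4 lower (median 0.06), with COX5B, the hypoxic isoform of a cytochrome oxidase subunit, at 0.91 ± 0.13. Oxygen-regulated genes had 7 of 32 higher and 4 lower (0.10) and the proteasome 7 of 35 and 2 (0.08). Autophagy genes had 10 of 39 and 7 (0.09), and the cell wall 14 of 50 and 9 (0.04). All counts of this paragraph compare with 17.9% of all genes called higher and 19.6% lower. The respiratory chain had 29.5% higher and 9.09% lower, oxygen-regulated genes 21.9% and 12.5%, and autophagy genes 25.6% and 17.9%. The share higher of oxygen-regulated genes and the share lower of autophagy genes were thus near those of all genes. Pyridoxine and biotin genes, SNZ1 and SNO1 among them, had 4 of 10 higher and 1 lower, with a median of 0.28. The endoplasmic reticulum's unfolded protein response had 2 of 20 higher and 6 lower (-0.08), pyrimidine synthesis 1 of 12 and 4 (-0.10), and sphingolipid and ergosterol synthesis 3 of 22 and 7 (-0.03) and 2 of 26 and 5 (-0.01). Mitochondrial ribosomal proteins had 10 of 73 higher and 8 lower (-0.01) and tricarboxylic acid cycle genes 5 of 24 and 5 (-0.01). These counts were 13.7% and 11.0% of the first list and 20.8% in each direction of the second. Ergosterol synthesis had 7.69% higher and 19.2% lower, the latter near the 19.6% of all genes. In 35 of the 50 lists the sign of the median was the same under quantile normalization over all probe sets, quantile normalization over yeast probe sets, median centring and the deposited values. In 15 it was not, among them ribosomal proteins, fatty acid, sphingolipid and ergosterol synthesis, the tricarboxylic acid cycle, autophagy, mitochondrial ribosome, histones and amino acid permeases.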

How the data were processed

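RNA of 2 wild-type and 2 SSG1-1 mutant samples was measured on 1-colour Affymetrix arrays. The deposited series table gives linear signal intensity for each probe set on each array, and the submitters' processing notes name GCOS. Detection calls in a second deposited table were usable for 2 columns, which hold the same values as the arrays numbered 2, so present calls served only for an alternative filter. Another 4 columns of per-sample values in it named no sample and were not used. Probe sets were named through the platform annotation and RefSeq R64 gene tables, which also gave gene lengths.

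Signals below 0.1 were set to 0.1, quantile-normalized on the log2 scale over all 10928 probe sets, and filtered: a probe set stayed if its mean exceeded the 95th percentile of probe sets for another yeast species (signal 15.93), which removed 128 of 5498. For genes with several probe sets the brightest stood for the gene in lists. The model in limma 3.58.1 (R 4.3.3; lmFit, then eBayes with a trend) had strain and array number, so number 1 was compared with number 2 within each strain, adjusted by Benjamini-Hochberg and called at 0.05. Each strain has 1 array per number, so no test of a difference between strains in the number effect was possible. The scripts were tested on simulated data, and Python 3.11.15 with matplotlib 3.10.9 drew the figures.

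The comparison, the gene lists and the named genes were chosen with earlier results of these data known, so they are no independent evidence. By the naming rules, 3 kinds of genes were picked. They were the 15 largest differences in each direction among called genes with a standard symbol and no overlap, up to 3 members of each list with the largest called differences, and nutrient, stress and reference genes set by name. The text leaves out picked members of some lists, among them pheromone, drug efflux and DNA damage genes. It also names some list members that these rules did not pick. The number of arrays limits the precision. Alternatives were the fit without strain, the deposited values, median centring, normalization over yeast probe sets, no filter, the call filter, a floor of 16, no trend, each array left out and, added after the data were seen, the trend on gene length removed.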

Additional observations from a re-analysis of the deposited data

Results flagged for a closer look

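Several lists and genes differed between the numbers in opposite directions in the 2 strains. With 1 array per strain and number, none of these differences between strains was tested, and all values are log2 differences, number 1 minus number 2. Among the lists, the median within the wild type and then the mutant was 0.0185 and -0.0936 for trehalose and glycogen, 0.00441 and -0.0458 for the tricarboxylic acid cycle, and 0.018 and -0.0219 for the mitochondrial ribosome. Amino acid permeases had -0.0303 and 0.00785, and thiamine, pyridoxine, biotin and NAD genes 0.0947 and -0.000921. The iron regulon had -0.126 and 0.0778, RNA polymerases I and III 0.0426 and -0.0564, and the vacuolar ATPase 0.00446 and -0.00509. G2/M and mitosis genes had -0.017 and 0.0841, and haploid and pheromone genes -0.0237 and 0.0285. The subtelomeric families had 0.123 and -0.23, the widest gap of these lists. Silencing genes and sirtuins had -0.119 and 0.0229, and DNA damage response genes -0.0849 and 0.0396.

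Among the named genes, PDC5, a pyruvate decarboxylase, differed by -0.733 in the wild type and 0.0239 in the mutant. MSN4, a stress activator, differed by 0.249 and -0.443, with signals of 403 and 506 on number 1 against 339 and 687 on number 2. FAS2 had 0.0351 and -0.0678, OLE1 0.196 and -0.0214, and RPA190 -0.13 and 0.00864.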

How the results depend on the processing

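Leaving the strain out of the model (no replicate block) cut the counts to 83 higher and 77 lower, as against 960 and 1058 with number 1 set against number 2 within each strain. Values as deposited gave 12 and 2, since the level differences between arrays then stay in the spread, and the fit without the mean-variance trend gave 366 and 344. With 1 array left out, the counts ran from 10 to 113 higher and from 2 to 82 lower, with the lone array of a number assumed to vary like the others. The remaining alternatives stayed within 1.5 times the counts, at 808 to 975 higher and 874 to 1059 lower. Of 188 genes picked by the naming rules 179 were called, and 50 of these stayed called without strain and 129 without the trend. Signs of single genes turned as follows (log2 difference, number 1 minus number 2). Under median centring HXT3 stood at 0.00622, FAS1 at 0.0372, FAS2 at 0.0706, RPA190 at 0.0291 and GCN4 at 0.0432. The deposited values put FAS2 at 0.0209, and removing the length trend put FAS1 at 0.124, FAS2 at 0.173, ACC1 at 0.0408 and RPA190 at 0.119. With 1 array left out, in a model without strain, HXT4 ran from -1.48 to 0.577, HXT3 from -0.248 to 0.000724, PHO4 from -0.85 to 0.0162, MSN4 from -0.607 to 0.412, FAS2 from -0.121 to 0.0879, MET17 from -0.0858 to 0.435, HXK1 from -1.22 to 2.02, ADH2 from -0.242 to 0.88 and HAP4 from -0.0654 to 0.644. These values with 1 array left out also hold part of the strain difference. The cause was not tested for the other changes. Among the 50 lists the sign of the median changed in 12 under median centring, 10 with the deposited values, 6 with the length trend removed, 1 with normalization over yeast probe sets and 7 to 9 with an array left out (in 45 of them some array left out moved the median over 1.5-fold or turned it), and in none without the filter, with the floor of 16, the call filter or without strain. A description of promoter motifs was planned and not run, since no promoter sequence was used here. Dim probe sets limit the rest: the SD of the difference was 0.458 in the dimmest of 5 classes by signal and 0.212 in the brightest.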

Other observations

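The ALG genes, of protein glycosylation, were picked out because some were seen among the genes called lower in all 3 fits, so their counts are a description. Of 12 ALG genes tested, 6 were called lower, against 19.6% of all genes, 4 of them in all 3 fits, against 1.21% of all probe sets, and none higher. Their median was -0.24, with values from -0.75 to 0.03. ALG6, which adds a glucose to the lipid-linked sugar precursor of the endoplasmic reticulum, read 2920.2 and 3166 on number 1 against 5225 and 4981 on number 2, a log2 difference of -0.75 ± 0.07. ALG8 and ALG11, which act on the same precursor, differed by -0.69 ± 0.08 and -0.68 ± 0.08, and ALG12 by -0.58 ± 0.08. The median length of the ALG genes was 1444 bp, in the range next to that where lower calls were common.

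The only probe set with differences of at least 2-fold in opposite directions was that of DAK2, a dihydroxyacetone kinase, at 81.5 and 11.9 on number 1 against 36.3 and 41.2 on number 2. Another 43 probe sets passed 2-fold in the wild type alone and 72 in the mutant alone. YGP1, a cell wall glycoprotein of starved cells, differed by 0.68 in the wild type and 1.94 in the mutant, and IZH4 by 1.72 and 0.57. Both were chosen after their values were seen, and the difference between strains was not tested.

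Position on the chromosomes was not related to the difference in any large way. The medians of the 16 chromosomes lay between -0.03 for chromosome XIII and 0.0347 for chromosome I. The 152 genes within 20 kb of a chromosome end had an SD of 0.535, compared with 0.334 for the other 5174, and a median of -0.028.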
